A study of Mus musculus with 4 samples.

Results

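The genes described here encode the nuclear subunits of oxidative phosphorylation, measured by RNA-seq in sorted cells of the mouse testis. They were chosen by name from the deposited expression table: Nduf genes of the a, b, c, s and v series, Sdha to Sdhd, all Uqcr genes, Cyc1 and Cycs, genes of the Cox4 to Cox8 families and all Atp5 genes, leaving out Ndufa4l2 and pseudogenes. The rule found 85 of 22802 rows, with 35 members in complex I, 4 in complex II, 9 in complex III, 1 for cytochrome c, 19 in complex IV and 17 in complex V. Ndufa4, which carries a complex I name, was counted with complex IV, where its protein was later placed. Atp5s, Atp5sl and Cox7a2l match the names and were kept, although they are not core subunits.

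Cells came from testes of C57BL/6J mice at postnatal day 10 that carried 2 transgenes, mFLE-Cre and CAG-CAT-EGFP. In such a reporter, Cre removes the CAT cassette and EGFP is then made in the cell and its progeny. Every library was therefore made from EGFP-expressing interstitial cells, which the sort divided by the basement membrane protein laminin into a laminin-negative population (n = 2, described as weak in EGFP) and a laminin-positive population (n = 2). The labels do not spell out the element that drives Cre. Nor do they say that duplicate libraries were from different animals, and the p-values below rest only on the spread between libraries, which may be technical. In sorted bulk populations, fewer cells of a type and less RNA per cell cannot be told apart.

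Oxidative phosphorylation passes electrons from NADH through complex I, or from succinate through complex II, to ubiquinone, then through complex III and cytochrome c to oxygen at complex IV. Complexes I, III and IV pump protons out of the mitochondrial matrix, and complex V, the ATP synthase, makes ATP as protons flow back. Some complex IV subunits exist as paralogous isoforms that replace each other between tissues. In Leydig cells, the steroid-making cells of the testis interstitium, the first step of steroid synthesis takes place in mitochondria. The subunits encoded by mitochondrial DNA were not analysed here.

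The libraries of a population correlated at r = 0.994 (laminin-negative) and r = 0.996 (laminin-positive) over tested genes, and at r = 0.898 to 0.903 between populations. The step between low values put the depth at roughly 30700000 to 33100000 fragments per library. Smooth muscle and myoid markers summed to 437 to 444 FPKM in laminin-negative libraries and to 8214 to 8345 FPKM in laminin-positive ones (FPKM are fragments scaled to transcript length and to the number of mapped fragments), with 8 of 8 tested markers higher. Pericyte markers summed to 59.9 to 62.7 and 335 to 343 FPKM, with 7 of 7 higher. Leydig cell markers summed to 4613 to 4869.8 FPKM in the laminin-negative libraries and only 162 to 208 FPKM in the others, with 7 of 7 tested markers lower in laminin-positive cells. Sertoli cell (61.6 to 65.9 against 134 to 143 FPKM, 4 of 6 higher), germ cell (11.4 to 14.0 against 28.9 to 29.4 FPKM, 6 of 7 higher) and macrophage markers (4.42 to 7.67 against 31.8 to 35.1 FPKM, 6 of 6 higher) were also higher in the laminin-positive libraries. Of 3 tested endothelial markers 2 were lower and 1 was higher. The sum over all 7 listed endothelial markers, 169 to 177 against 14.4 to 15.2 FPKM, was mostly Cdh5. Every marker sum covers all listed markers that were found, tested or not. No listed Leydig, smooth muscle, pericyte or macrophage marker was at 0 in any library, whereas the germ cell marker Dppa3 was at 0 in 3 libraries, and the endothelial marker Tie1 and the Sertoli cell marker Fshr were at 0 in 2 libraries and 1 library. These marker differences accompany every comparison of the 2 populations, and their part in the results on the subunits was not tested.

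The subunit genes were abundant in both populations and most were slightly lower in the laminin-positive cells, while a few moved the other way. Their median level was 107 FPKM without laminin and 102 FPKM with it, against a median of 11 FPKM over all tested genes. Summed over the 85 members, FPKM were 13026 and 13888 in the laminin-negative libraries and 12157 and 11771 in the laminin-positive libraries. The laminin-positive sums were both below the laminin-negative sums, by 11.1% on average. As a share of each library's FPKM total the members made up 2.45 and 2.53%, against 2.41 and 2.40%. A test of 2 against 2 libraries cannot give an exact permutation p under 0.333, so the sums carry no test.

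Of the 85 members 82 passed the filter of at least 1 FPKM in at least 2 libraries. Cox4i2 passed only through the laminin-positive libraries and was not tested where either of them was left out. In the limma fit on log2(FPKM + 1) across all 12348 tested genes, 5 members were higher in laminin-positive cells and 34 were lower at an adjusted p under 0.05, and 43 did not pass. In all, 52.9% of tested genes were called. The background in that fit was 26.6% of all tested genes higher and 26.3% lower, against 41.5% of the members lower. The median difference (laminin-positive minus laminin-negative, log2) was -0.15 for the members and 0.01 for all tested genes. Among the members 64 had a negative difference, which 49.1% of all tested genes had. Both laminin-positive libraries lay below both laminin-negative libraries in 47 members (37.8% of all tested genes) and above them in 10 (39.4% of all tested genes), and 25 overlapped. Called members are named below by the size of their difference, so a lack of overlap in them is no further support. The counts depended on single libraries: without laminin-positive replicate 2, 3 members were higher and 21 lower (25.9% of those tested), where 18.6% of all genes were higher and 22.6% lower. Without laminin-positive replicate 1, 2 were higher and 25 lower (31.3%), where 19.8% of all genes were higher and 22.8% lower.

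**Figure D1:**
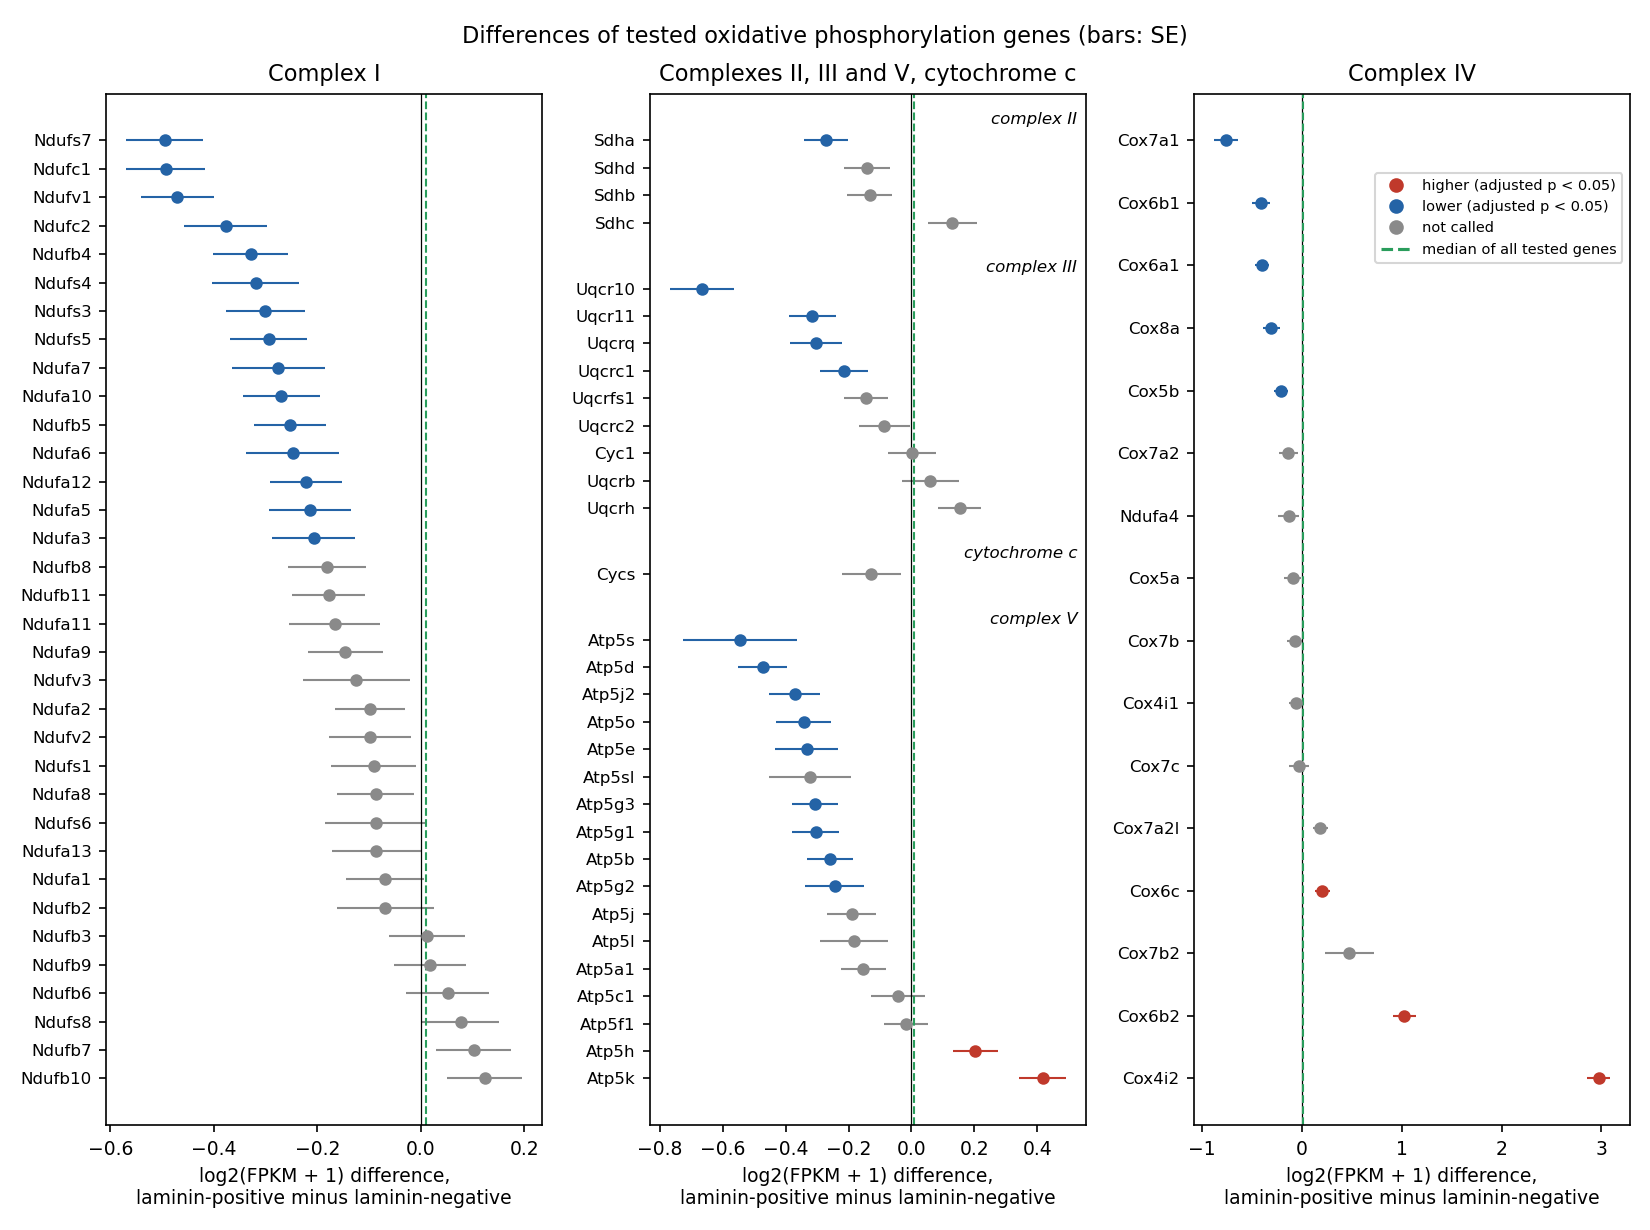
Each point is 1 tested subunit gene (1 complex I gene is not shown), placed by its difference between laminin-positive and laminin-negative cells (log2 of FPKM + 1, x axis, whose range differs between panels) with its standard error, and grouped by complex, with red for higher, blue for lower, grey for not called and a dashed line at the median of all tested genes. Most points lie left of 0, and Cox4i2 and Cox6b2 of complex IV lie farthest to the right.

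Abundant genes as a class also fell more often than they rose. Among the 1531 tested genes with a mean of at least 50 FPKM, a limit chosen after the members' levels were known, 23.1% were higher and 43.4% lower, with a median difference of -0.14. Of the 70 members at that level 4 (5.71%) were higher and 29 (41.4%) lower, with a median of -0.14. The share of members that fell was close to that of these abundant genes, and the share that rose was smaller. No test was made of either difference.

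The direction of the small differences also depended on how libraries were scaled. Scaling to equal FPKM totals moved the median of all genes from 0.01 to 0.12 and gave 11 members higher and 15 lower, where all genes were 34.6% higher and 19.2% lower. Scaling by a trimmed mean of log ratios gave 3 higher and 34 lower (25.3% and 27.6% of all genes), and quantile normalization 8 higher and 26 lower (24.8% and 26.6%). Relative to the median of all genes, the members' median was -0.16 as deposited, -0.15 with equal totals, -0.16 with the trimmed mean and -0.07 after quantile normalization. With no variance shared across genes, 1 member was higher and 4 were lower, against 10.9% and 9.81% of all genes. Of the 34 members called lower, 15 kept that call with equal totals, 25 after quantile normalization and 33 with the trimmed mean.

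**Figure D2:**
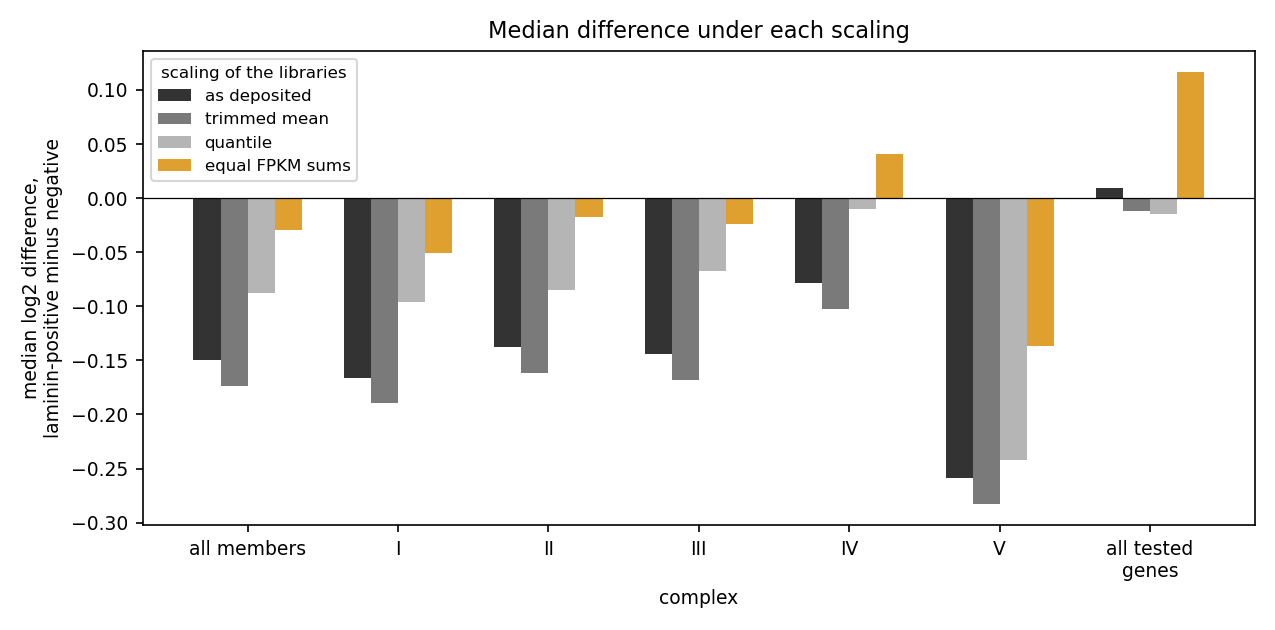
Bars give medians of the log2 difference for all members, each complex and all tested genes under the deposited scaling and 3 alternatives (y axis in log2 units). Complex V had the lowest median of the 5 complexes relative to all genes under each scaling, and the median of complex IV came closest to that of all genes.

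Complex I takes electrons from NADH in its catalytic core and is held together by many accessory subunits. None of its 35 members was higher and 15 were lower, with a median difference of -0.17. The background was 26.6% of all tested genes higher and 26.3% lower. Among tested genes with a mean of at least 50 FPKM it was 23.1% higher and 43.4% lower. With equal FPKM totals 3 were higher and 5 lower, where 34.6% of all tested genes were higher and 19.2% lower. Its summed FPKM were 3553 and 3724 in laminin-negative and 3254 and 3123 in laminin-positive libraries, 12.3% lower on average, a difference of the group means (3638 ± 121 and 3189 ± 92.5, SD, n = 2) that exceeded both SDs. Without laminin-positive replicate 2 its median difference was -0.15, where that of all tested genes was -0.01.

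Of 7 catalytic core members 3 were lower. Ndufv1, which carries the flavin that accepts electrons from NADH, was at 76.7 and 74.1 FPKM in the laminin-negative libraries and at 53.3 and 55.0 FPKM in the laminin-positive ones. Its fall of 0.47 log2 units (SE 0.07, limma adjusted p = 2.39e-04) was the only member call that held under all 13 alternatives. Ndufs7, which holds the last iron-sulfur cluster before ubiquinone, fell from 113 and 105 to 79.1 and 74.7 FPKM (log2 difference -0.49, SE 0.07, adjusted p = 2.34e-04). Ndufs7 and the complex V gene Atp5d lie in 1 locus of 47 rows of the table, so that reads could have been shared with neighbours. In Ndufv1 and Ndufs7 the groups did not overlap.

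Among 28 accessory members 12 were lower. Ndufc1, a small membrane-arm subunit, fell from 159 and 173 to 121 and 114 FPKM (log2 difference -0.49, SE 0.08, adjusted p = 2.88e-04). Ndufc2, its partner in the membrane arm, fell from 199.7 and 226 to 167 and 160.1 FPKM (-0.38, adjusted p = 0.00245). Ndufb4, also of the membrane arm, fell from 203 and 218 to 168 and 167 FPKM (-0.33, adjusted p = 0.00295). Ndufs4, needed for the assembly of the NADH-binding module, fell from 34.7 and 39.1 to 30.1 and 28.6 FPKM (-0.32, adjusted p = 0.00831), a call lost with equal totals. In all 4 of these genes, named for their large differences, both laminin-positive libraries were below both laminin-negative libraries. The most abundant complex I transcripts, Ndufa3 and Ndufa7, had less stable calls. Ndufa3 was at 355 and 341 against 319 and 284 FPKM (adjusted p = 0.0498), and its call held under 4 of 13 alternatives, not without laminin-negative replicate 1 or laminin-positive replicate 2. Ndufa7 was at 270.0 and 315 against 252 and 229.8 FPKM (adjusted p = 0.0248), held under 6 of 13 and not without replicate 2 of either population.

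Complex II, succinate dehydrogenase, is also an enzyme of the tricarboxylic acid cycle and has no subunit encoded in mitochondrial DNA. Of its 4 genes 1 was lower, where 26.3% of all tested genes were lower. Sdha, the flavoprotein that binds succinate, fell from 83.4 and 82.1 to 67.0 and 69.8 FPKM (log2 difference -0.27, SE 0.07, adjusted p = 0.00764). That call did not hold with equal FPKM totals, nor without laminin-positive replicate 1. Sdhb, the iron-sulfur subunit, was at 55.4 and 55.5 against 50.1 and 50.9 FPKM (adjusted p = 0.136). Sdhd, a membrane anchor, was at 75.2 and 72.1 against 68.7 and 64.7 FPKM (adjusted p = 0.126). Sdhc, the other anchor, was at 112 and 103 against 113 and 123 FPKM (adjusted p = 0.187), with both laminin-positive libraries above both laminin-negative libraries. The 3 other subunits were below in both laminin-positive libraries, and the summed FPKM of the complex dropped by 5.04%. With equal FPKM totals the direction turned: the sum was higher in laminin-positive cells by 0.046 log2 units, Sdhc was higher (adjusted p = 0.0243) and none of the 4 genes was lower.

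Complex III passes electrons from ubiquinol to cytochrome c. Of its 9 members 4 were lower and none was higher, where 26.3% of all tested genes were lower and 26.6% higher. Among tested genes with a mean of at least 50 FPKM, 43.4% were lower and 23.1% higher. The summed FPKM of complex III were 13.8% lower in laminin-positive cells. Uqcr10, a small subunit of the complex, had the lowest log2(FPKM + 1) difference outside the tissue isoforms as deposited, although by FPKM means and after quantile normalization Atp5s fell further. It was at 262 and 300.1 FPKM in the laminin-negative libraries and at 194 and 160.2 FPKM in the laminin-positive ones (log2 difference -0.67, SE 0.10, adjusted p = 2.68e-04). The gap between the groups exceeded the spread within each, although the 2 laminin-positive libraries also differed from each other. Uqcr11 fell from 218 and 207 to 177 and 164 FPKM (-0.32, adjusted p = 0.00458), and Uqcrq from 182 and 193 to 163 and 141 FPKM (-0.30, adjusted p = 0.0113). Uqcrc1, a core protein facing the matrix, was at 109 and 107 against 97.6 and 87.7 FPKM (adjusted p = 0.0353, held under 6 of 13 alternatives, not without laminin-negative replicate 1). Uqcrh, the hinge protein of the complex, was at 189 and 186 against 206 and 212 FPKM (0.15, SE 0.07, adjusted p = 0.0859). Both its laminin-positive libraries were above both laminin-negative libraries, and it was called higher with equal totals (adjusted p = 0.00638). The calls for Uqcr11, Uqcrq and Uqcrc1 did not hold without laminin-positive replicate 2. With equal totals 2 of the 9 were lower and 1 higher, where 19.2% of all tested genes were lower and 34.6% higher.

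Cyc1, the cytochrome c1 heme protein, was at 97.0 and 87.9 against 93.8 and 91.2 FPKM, and the groups overlapped. Cytochrome c itself, encoded by Cycs, was at 17.5 and 20.4 against 17.5 and 16.9 FPKM (log2 difference -0.13, adjusted p = 0.273). Its level per length was thus well under that of most subunits in both populations. The testis form Cyct, which is not a member, was listed at 0.482 and 0.172 against 0.358 and 0.903 FPKM, under 1 FPKM in all 4 libraries.

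**Figure D3:**
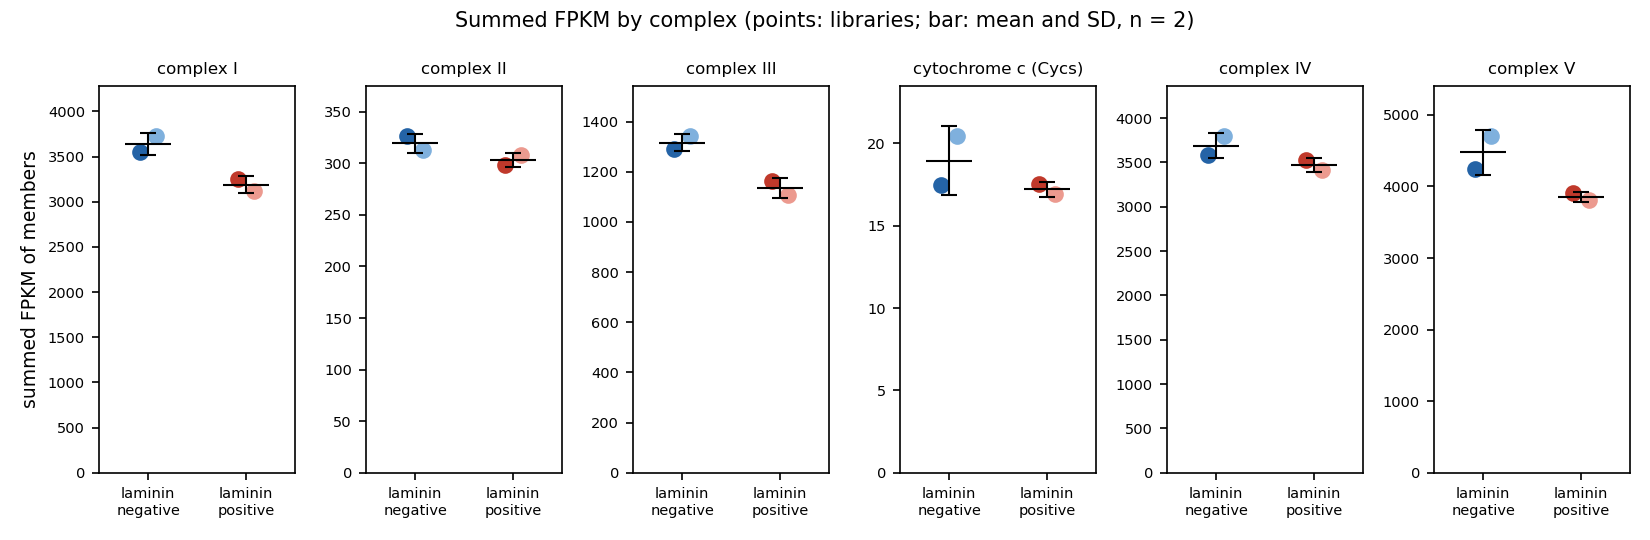
Summed FPKM of the members of each complex in each of the 4 libraries (y axis, FPKM, scaled for each panel), with 1 point per library and bars for the mean and SD of each population (n = 2). The laminin-positive sums of complexes I to V are below both laminin-negative sums in the deposited scaling, and the gap relative to the level is smallest for complexes II and IV, while the Cycs libraries overlap.

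Complex IV, cytochrome c oxidase, was the most divided of the complexes. Of its 16 tested members 3 were higher and 5 lower, with a median of -0.08, where 26.6% of all tested genes were higher and 26.3% lower. Its sum was 6.04% lower in laminin-positive cells as deposited, and higher by 0.03 log2 units with equal FPKM totals. Its median was -0.07 without laminin-positive replicate 2 (15 members tested) and -0.15 without laminin-positive replicate 1 (14 tested). In both cases Cox4i2 failed the filter on low values and was not tested.

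The 11 subunits common to most tissues held the bulk of this sum. Cox6a1, a subunit at the interface of the dimer, fell from 531 and 504 to 398 and 387 FPKM (log2 difference -0.40, SE 0.07, adjusted p = 0.00105). Cox8a, a small subunit that crosses the membrane, fell from 532 and 547 to 463 and 412 FPKM (-0.30, adjusted p = 0.00973), a call that needed laminin-positive replicate 2 and did not hold with equal totals. Cox5b, which binds zinc on the matrix side, was at 208 and 202 against 185 and 171 FPKM (adjusted p = 0.0369, held under 5 of 13 alternatives). Cox6c went the other way, from 531 and 569 to 640.0 and 629.9 FPKM (0.21, SE 0.08, adjusted p = 0.0419), a call held under 5 of 13. Leaving out any library but laminin-negative replicate 2 ended the calls for Cox5b and Cox6c. In each of these 4 genes the groups did not overlap.

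Other common subunits did not pass the test. Ndufa4 was at 258 and 328 against 275 and 257 FPKM (adjusted p = 0.316). Cox7a2 was at 109 and 134 against 109 and 111 FPKM, Cox7b at 56.5 and 62.0 against 58.6 and 54.3 FPKM, and Cox7c at 90.9 and 72.0 against 77.1 and 81.8 FPKM. Without laminin-negative replicate 1, Cox7a2 and Ndufa4 were called lower. In these 4 genes the groups overlapped, and the spread between the laminin-negative libraries was wide for Ndufa4, Cox7a2 and Cox7c.

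The isoforms of complex IV included the 3 largest differences of any member, those of Cox4i2, Cox6b2 and Cox7a1. Cox4i2 (chr2:152754173-152765037, plus strand, GRCm38), the alternative form of subunit IV and known for its regulation by oxygen, was at 0.629 and 0.696 FPKM in laminin-negative libraries. In laminin-positive libraries it was at 11.3 and 12.8 FPKM, 18.2-fold higher by the means and 2.97 on the log2(FPKM + 1) scale (SE 0.11, adjusted p = 5.28e-09). Cox4i2 passed the filter on low values only through the laminin-positive libraries, and it was called in the 11 alternatives in which it passed that filter. The common form Cox4i1 was at 548 and 541 against 518 and 529.7 FPKM and did not pass the test (log2 difference -0.06, adjusted p = 0.537). Cox4i2 therefore made up 0.115 and 0.128% of the pair in laminin-negative and 2.14 and 2.36% in laminin-positive libraries, and Cox4i1 remained the bulk of the transcripts in both. In the table, the Cox4i2 row shares a locus with Bcl2l1, which was at 16.8 and 16.2 against 27.3 and 27.9 FPKM.

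Cox6b bridges the complex IV dimer, and Cox6b2 is its form known from testis. Cox6b2 (chr7:4751792-4753094, minus strand, GRCm38) rose from 63.3 and 84.8 to 151 and 149 FPKM, 2.03-fold (log2 difference 1.03, SE 0.11, adjusted p = 2.51e-05). Cox6b1 fell over the same libraries from 343 and 407 to 285 and 276 FPKM (-0.41, SE 0.09, adjusted p = 0.00274). The share of Cox6b2 in the pair was 15.6 and 17.2% in laminin-negative and 34.6 and 35.1% in laminin-positive libraries. The sum of the pair was 449 ± 59.8 FPKM without laminin and 431 ± 7.60 FPKM with it (SD, n = 2), a gap smaller than the SD of the former. The 2 forms thus shifted in proportion, while the gap between their sums was under the laminin-negative SD but above the laminin-positive SD. Germ cell markers summed to 11.4 to 14.0 FPKM in laminin-negative and 28.9 to 29.4 FPKM in laminin-positive libraries, and their part in the rise of Cox6b2 was not tested.

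Cox7a1, the heart and skeletal muscle form of subunit VIIa, was lower in the laminin-positive cells. It was at 10.3 and 12.2 FPKM in the laminin-negative libraries and at 5.61 and 6.87 FPKM in the laminin-positive ones (log2 difference -0.76, SE 0.12, adjusted p = 3.26e-04). Its share of the pair with Cox7a2 was 8.65 and 8.33% against 4.89 and 5.83%. The forms Cox4i2 and Cox7a1 thus differed in opposite directions between the populations. Cox7b2 was near the detection level, at 0.10 and 1.06 against 1.27 and 0.943 FPKM, and did not pass the test (adjusted p = 0.122), although it was called higher without laminin-positive replicate 2. The muscle form Cox6a2 was listed at 0 in both laminin-negative libraries and at 0.177 and 0.170 FPKM in the laminin-positive libraries. Cox8b was listed at 0.740 FPKM in 1 laminin-negative library and Cox8c at 1.45 FPKM in 1 laminin-positive library, each at 0 in the other 3. These last 3 genes were under the filter and were not tested.

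Ndufa4l2, a paralog of Ndufa4 known as a hypoxia-induced gene and not a member here, is shown for comparison. It rose from 4.17 and 4.09 to 17.4 and 23.0 FPKM (log2 difference 2.04, SE 0.12, adjusted p = 2.13e-07). Its share of the pair with Ndufa4 was 1.59 and 1.23% against 5.96 and 8.23%. Smooth muscle, pericyte, Sertoli cell, germ cell and macrophage markers, given above, had higher sums in the same libraries as Ndufa4l2, Cox4i2 and Cox6b2, and their part was not tested.

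**Figure D4:**
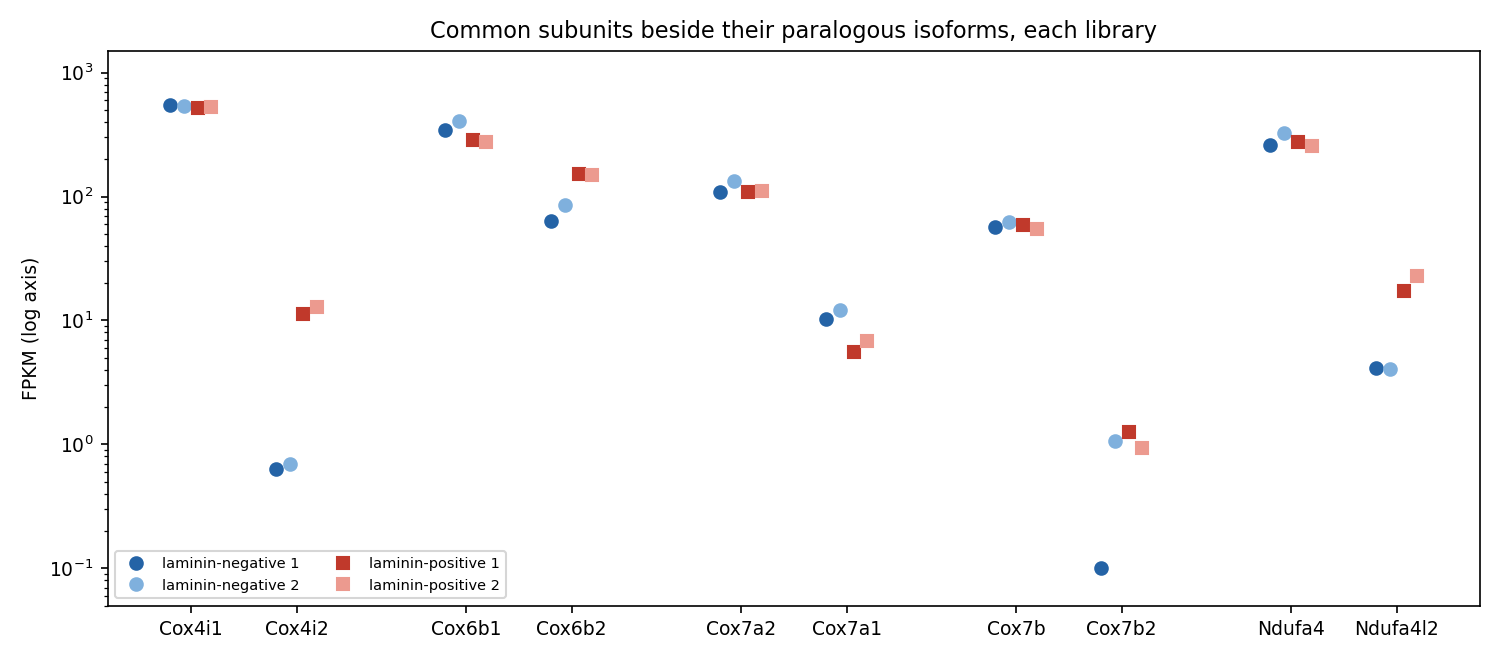
FPKM of paralogous subunit forms in each of the 4 libraries (y axis, log scale), 1 point per library, with the common form beside the alternative form. Cox4i2, Cox6b2 and Ndufa4l2 are higher and Cox7a1 is lower in both laminin-positive libraries.

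Promoter windows were read for every member for which one was found, and those of 4 members are shown. RefSeq windows (GRCm38.p6, 250 bases before to 50 bases after the gene start) were found for 70 of the 85 members, and not for Cox4i2. Windows are shown for Atp5k, which rose, for Cox6a1, which fell, and for the pair Cox6b1 and Cox6b2, with matches on either strand to GCGCATGCG (NRF1) or CCGGAAG (the ETS family) in capitals. Each is read 5′ to 3′ on the minus strand of the genome, which is the coding strand of all 4 genes.
Atp5k, chr5:108434350-108434649: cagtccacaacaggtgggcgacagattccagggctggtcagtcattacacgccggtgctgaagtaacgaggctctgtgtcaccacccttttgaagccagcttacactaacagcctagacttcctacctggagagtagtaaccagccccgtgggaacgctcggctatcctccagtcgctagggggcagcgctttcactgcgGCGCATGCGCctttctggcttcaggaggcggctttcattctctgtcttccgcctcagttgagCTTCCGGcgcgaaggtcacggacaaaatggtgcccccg
Cox6a1, chr5:115348909-115349208: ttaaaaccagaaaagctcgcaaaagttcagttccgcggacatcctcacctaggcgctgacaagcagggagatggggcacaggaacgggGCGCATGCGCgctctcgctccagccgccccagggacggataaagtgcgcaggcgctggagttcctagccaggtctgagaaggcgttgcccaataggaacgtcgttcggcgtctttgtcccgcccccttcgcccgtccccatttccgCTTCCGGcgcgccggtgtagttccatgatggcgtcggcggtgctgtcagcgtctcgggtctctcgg
Cox6b1, chr7:30626065-30626364: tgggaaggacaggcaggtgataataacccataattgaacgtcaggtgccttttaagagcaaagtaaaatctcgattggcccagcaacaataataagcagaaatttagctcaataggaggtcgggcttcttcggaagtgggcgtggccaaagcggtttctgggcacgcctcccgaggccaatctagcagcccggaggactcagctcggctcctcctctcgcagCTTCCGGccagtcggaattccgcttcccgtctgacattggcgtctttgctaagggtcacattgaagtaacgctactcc
Cox6b2, chr7:4753045-4753344: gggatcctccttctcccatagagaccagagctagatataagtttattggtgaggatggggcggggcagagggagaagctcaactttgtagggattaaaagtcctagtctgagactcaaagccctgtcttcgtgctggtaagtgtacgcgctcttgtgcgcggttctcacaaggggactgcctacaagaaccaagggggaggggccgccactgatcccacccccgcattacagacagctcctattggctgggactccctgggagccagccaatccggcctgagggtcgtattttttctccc

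NRF1 and ETS factors are known regulators of nuclear genes for mitochondrial proteins. Atp5k and Cox6a1 each held an NRF1 and an ETS match, although the first rose and the second fell. Cox6b1 held an ETS match, and Cox6b2 held none of the 5 motifs searched. The NRF1 letters were in 9 of 70 member windows (12.9%) and in 1.75% of all 32851 windows. The ETS letters were in 15 (21.4%, against 8.86%), AAGATGGCG (YY1) in 7 (10.0%, against 1.4%) and TCAAGGTCA (estrogen-related receptors) in 2 (2.86%, against 0.423%). ACGTG, the core letters of the hypoxia response element, were in 20 windows (28.6%, against 19.6%). Member windows had a median GC content of 57.2%, against 52.7% in all windows, and the shares were not adjusted for it. Only 1 window was taken per member, while the set of all windows can hold several starts of a gene. Among the 33 windows of members that fell, 4 held the NRF1, 6 the ETS and 11 the ACGTG letters. Of the 33 windows of members not called, 4, 7 and 8 did. Among the 3 windows of members that rose, 1, 2 and 0 did. None of these motifs contains another, the NRF1 matches shown overlap on the 2 strands, and a match describes letters only.

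Complex V showed the lowest median of the 5 complexes, at -0.26. Of its 17 members 9 were lower, Atp5s among them, and 2 higher, where 26.3% of all tested genes were lower and 26.6% higher. Among tested genes with a mean of at least 50 FPKM, 43.4% were lower and 23.1% higher. The summed FPKM of complex V were 4250.5 and 4698 in laminin-negative and 3903 and 3805 in laminin-positive libraries, 13.9% lower on average. With equal FPKM totals 5 were lower and 2 higher, where 19.2% of all tested genes were lower and 34.6% higher.

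Of the 5 subunits of the catalytic F1 head 3 were lower, and their summed FPKM were 17.7% lower. Atp5d, the delta subunit of the central stalk, fell from 357 and 363 to 273 and 246 FPKM (log2 difference -0.47, SE 0.08, adjusted p = 4.35e-04). Atp5e, the epsilon subunit beside it, fell from 436 and 543 to 395 and 378 FPKM (-0.33, adjusted p = 0.0176). Atp5b, the catalytic beta subunit, fell from 495 and 499 to 423 and 408 FPKM (-0.26, SE 0.07, adjusted p = 0.0119). In all 3 both laminin-positive libraries were below both laminin-negative libraries. The calls for Atp5e and Atp5b were lost with equal FPKM totals, that for Atp5e also without laminin-negative replicate 2 and that for Atp5b without either laminin-positive library.

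Of the 10 members of the membrane part and the peripheral stalk 5 were lower and 2 higher. Atp5j2, the f subunit of the membrane part, fell from 272 and 309 to 227 and 221 FPKM (-0.37, SE 0.08, adjusted p = 0.00287). Atp5o, which connects the peripheral stalk with the F1 head, fell from 201 and 241 to 175 and 173 FPKM (-0.34, adjusted p = 0.00798). Atp5k, the e subunit of the membrane part, rose from 207 and 201 to 260.4 and 284 FPKM (0.42, SE 0.07, adjusted p = 8.28e-04) under 12 of 13 alternatives. Atp5h, of the peripheral stalk, was at 146 and 142 against 159.8 and 173 FPKM (0.20, adjusted p = 0.0370), a call held under 6 of 13 and, among left-out libraries, only without laminin-negative replicate 1. Atp5f1, of the same stalk, was at 88.1 and 91.2 against 87.0 and 90.3 FPKM, and the groups overlapped. Members of the same module thus moved in opposite directions, with Atp5j2 below and Atp5k above in both laminin-positive libraries.

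The 3 genes Atp5g1, Atp5g2 and Atp5g3 encode the same mature c subunit of the rotating ring, with different import sequences. All 3 were lower in laminin-positive cells. Atp5g1 was at 116 and 127 against 100.4 and 95.8 FPKM (-0.30, adjusted p = 0.00622). Atp5g3 was at 475 and 506 against 394 and 398 FPKM (-0.31, adjusted p = 0.00542). Atp5g2 was at 506 and 584 against 486 and 432 FPKM (-0.24, adjusted p = 0.0479), a call held under 4 of 13 alternatives and not without replicate 2 of either population. The calls for Atp5g1 and Atp5g2 did not hold with equal totals. Together they summed to 1157 ± 85.1 FPKM without laminin and 954 ± 38.6 FPKM with it (SD, n = 2). In laminin-negative and laminin-positive cells Atp5g2 made up 47.0 ± 1.31% and 48.1 ± 2.06% of the sum, and Atp5g3 42.5 ± 1.22% and 41.6 ± 1.99%, gaps smaller than the SDs. The share of Atp5g1 was 10.5 ± 0.084% and 10.3 ± 0.071%, a small gap that exceeded both SDs, with no overlap between the groups. Atp5s, which is not a core subunit, was at 3.81 and 6.09 against 2.54 and 3.53 FPKM (adjusted p = 0.0267), a call lost without laminin-negative replicate 2 or laminin-positive replicate 1.

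Other genes of the pathway were read from the same fit, with its background of 26.6% of genes higher and 26.3% lower. With equal FPKM totals that background was 34.6% higher and 19.2% lower. Of 43 tested assembly factors 12 (27.9%) were lower, close to that background, and 3 (6.98%) higher (median -0.16). Nubpl, which delivers iron-sulfur clusters to complex I, fell from 10.8 and 11.2 to 4.88 and 5.30 FPKM (-0.98, adjusted p = 1.05e-05). Ndufaf6, a complex I assembly factor, fell from 4.44 and 5.41 to 2.51 and 2.90 FPKM (-0.67, adjusted p = 9.18e-04). The merged row of Sco2, a copper chaperone of complex IV, and Tymp fell by 0.83 log2 units (adjusted p = 1.04e-04). With equal FPKM totals 7 assembly factors were lower and 7 higher.

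Of 16 tested regulators of mitochondrial gene expression 2 (12.5%) were higher and 3 (18.8%) lower, both below the background. Ppargc1a, a coactivator known for raising mitochondrial gene expression, was at 0.389 and 0.262 FPKM in laminin-negative and at 3.6 and 3.77 FPKM in laminin-positive libraries (1.82 on the log2(FPKM + 1) scale, SE 0.12, adjusted p = 4.71e-07). It passed the filter on low values only through the laminin-positive libraries. Tfb1m, a methyltransferase of mitochondrial ribosomal RNA, fell from 5.73 and 6.87 to 3.99 and 4.68 FPKM (-0.45, adjusted p = 0.00880). That call did not hold without laminin-positive replicate 1. Esrra, an estrogen-related receptor, was at 11.8 and 9.0 against 8.25 and 7.63 FPKM (adjusted p = 0.0376), lost with equal totals, without laminin-negative replicate 1 and without laminin-positive replicate 2.

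Of 19 genes of the tricarboxylic acid cycle and its entry 9 (47.4%) were lower and 1 (5.26%) higher (median -0.19, 4 and 3 with equal totals). Pcx, pyruvate carboxylase, fell from 15.8 and 15.8 to 3.54 and 3.35 FPKM (-1.92, SE 0.09, adjusted p = 4.12e-08). Fh1, fumarate hydratase, fell from 66.4 and 72.8 to 48.1 and 49.1 FPKM (-0.51, adjusted p = 2.24e-04), and Dld, shared by the 2-oxo acid dehydrogenases, from 43.4 and 49.7 to 33 and 35.5 FPKM (-0.43, adjusted p = 0.00176). Of 22 carriers, import and structural genes 11 (50%) were lower and 3 (13.6%) higher (median -0.23, 7 and 5 with equal totals). Among tested genes with a mean of at least 50 FPKM, 43.4% were lower and 23.1% higher, and neither list was matched for level. Slc25a3, which carries the phosphate that the ATP synthase uses, fell from 459.6 and 479 to 293 and 281 FPKM (-0.71, adjusted p = 1.36e-05). Hspd1, the matrix chaperonin, fell from 147 and 149 to 86.0 and 84.7 FPKM (-0.78, adjusted p = 3.63e-06). Ucp2, an inner membrane carrier, rose from 162 and 171 to 375 and 393 FPKM (1.20, SE 0.07, adjusted p = 1.91e-07).

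Of 16 glycolysis genes 4 (25.0%) were higher and 6 (37.5%) lower (median -0.06). Pfkl, the liver form of phosphofructokinase, rose from 12.0 and 11.7 to 31.5 and 29.8 FPKM (1.30, adjusted p = 2.53e-07). Hk1 rose from 20.4 and 18.9 to 35.0 and 36.2 FPKM (0.83, adjusted p = 7.97e-06), while its paralog Hk2 fell from 41.8 and 36.8 to 23.2 and 21.7 FPKM (-0.78, adjusted p = 2.59e-05). Of 17 hypoxia-responsive genes, Ndufa4l2 among them, 5 were higher and 5 lower (29.4% each, near the background, median 0.01). Car9, a carbonic anhydrase, was at 0.278 and 0.143 against 1.20 and 1.45 FPKM (0.94, adjusted p = 1.79e-04) and also passed the filter only through the laminin-positive libraries. Vegfa, an angiogenic growth factor, fell from 33.4 and 31.1 to 13.2 and 12.2 FPKM (-1.28, adjusted p = 3.98e-07).

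**Figure D5:**
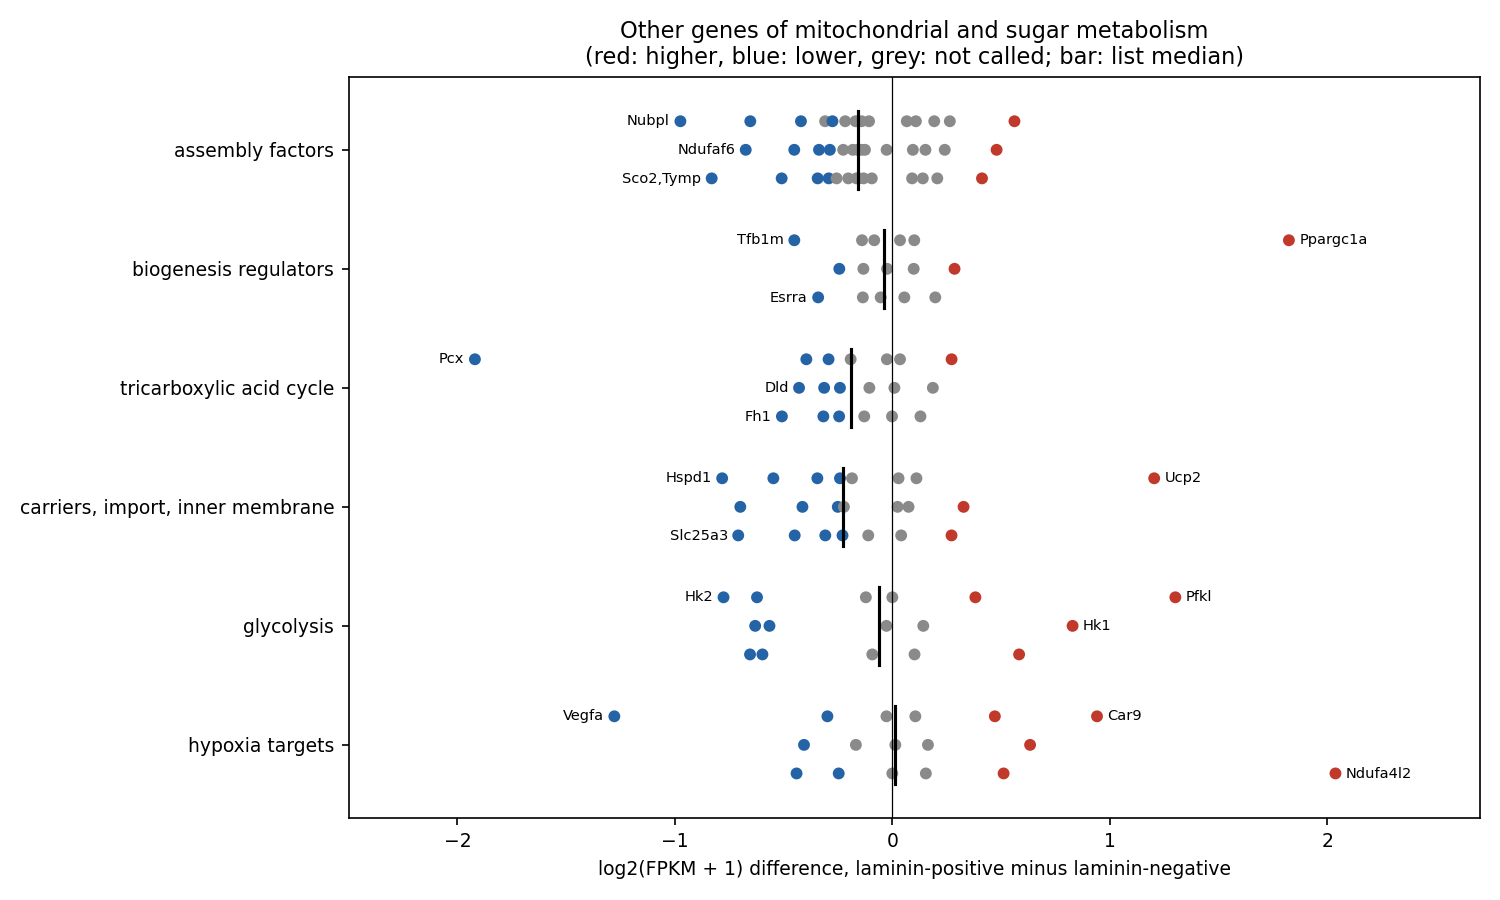
Log2 differences of the tested genes of each pathway list (x axis, laminin-positive minus laminin-negative, log2 of FPKM + 1), 1 point per gene, red where higher, blue where lower and grey where not called, with a bar at the median of each list. Medians lie between -0.23 and 0.01, near 0 on the scale of the single genes named.

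Gene structure limits some of these values. For 26 members the annotated gene overlaps another gene, 11 members share a locus with another row of the table, and 5 have pseudogenes named after them. The libraries came from a strand-marking kit, but whether counting used strand, and how reads that match several copies were handled, are points on which the sources used here are silent. Over 81 members with a length, the log2 difference correlated with log2 transcript length at r = 0.05, as a description across genes of the same libraries.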

How the data were processed

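RNA-seq of 4 libraries was analysed (laminin-negative n = 2, laminin-positive n = 2). The deposited values are FPKM per gene and library, made by the authors with TopHat2 2.1.1 and Cufflinks 2.2.1, per the submitters' processing notes; the sources used here name neither the genome build nor the strand setting. Of 21203 rows compared with GENCODE M21 (GRCm38), 99.6% overlapped the gene of the same symbol. FPKM carry no counts, so depth was estimated only roughly from the lowest values.

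Rows with at least 1 FPKM in at least 2 libraries were tested with limma 3.58.1 (R 4.3.3; linear model, empirical Bayes with trend) on log2(FPKM + 1), which understates the change of low genes. Tests were two-sided with Benjamini-Hochberg adjustment over all 12348 tested rows and a threshold of 0.05. The script was tested on simulated data. Summed FPKM and isoform shares were computed per library without a test.

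Alternatives were the pseudocount (0.1), filters (none, or 5 FPKM), 3 scalings (equal FPKM totals without Rn45s, trimmed mean, quantile), 2 variance models, the replicate number as a block and leaving out each library, 13 in all. The background at 50 FPKM or more was added after seeing the data. Named are called members up to the 6 largest differences per complex and direction, the 2 most abundant and the least changed member of each complex, isoform pairs, all Sdh genes, Cyc1 and Cycs, and the 3 genes with the largest difference in each other list. Members, gene lists and motifs were chosen with earlier results of these data known. The values of 1 complex I member are not reported here, although it was counted.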

Additional observations from a re-analysis of the deposited data

How the results depend on the processing

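With no variance shared across genes, 1346 genes were higher and 1211 lower, and of the members 1 was higher and 4 lower. In that fit 21 of the 82 tested members had an unadjusted p under 0.05, as did 5244 of all 12348 tested genes. Members called higher numbered 11 with equal FPKM totals, 3 with trimmed mean scaling, 8 after quantile normalization and 3 without an intensity trend, against 5 in the deposited scaling. Members called lower numbered 15 with equal totals. Leaving out each library in turn gave 2 to 5 members higher and 21 to 38 lower. In these fits the members' median, relative to that of all tested genes, was -0.24 without laminin-negative replicate 1 and -0.15 without laminin-negative replicate 2. It was -0.18 without laminin-positive replicate 1 and -0.13 without laminin-positive replicate 2. In all, 15 of the 39 calls held under every alternative other than that with no shared variance. With equal totals the log2 ratio of summed FPKM was -0.048 for all members, -0.068 for complex I, -0.093 for complex III, -0.016 for cytochrome c and -0.093 for complex V, and it turned to 0.046 for complex II and 0.032 for complex IV. Leaving out each library gave -0.22 to -0.12 for all members, -0.10 to -0.044 for complex II, -0.25 to -0.022 for cytochrome c, -0.13 to -0.049 for complex IV and -0.29 to -0.14 for complex V, and a change in the c subunit shares of -0.38 to 2.54 percentage points for Atp5g2 and -2.27 to 0.55 for Atp5g3. Libraries with equal replicate numbers showed no shared deviation across genes (r = 0.0081 between the deviations of the populations). A single difference per population cannot tell whether the numbers pair the libraries. The fit with the replicate block gave 3376 genes higher and 3343 lower, and 4 members higher and 33 lower.

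Among single genes, the sign turned only where no call was made. With equal totals Atp5f1 was at 0.10, Cox4i1 at 0.064, Cox7b at 0.053 and Cox7c at 0.093, after quantile normalization Atp5f1 was at 0.047 and Cox7c at 0.044, and with trimmed mean scaling Cyc1 was at -0.023. Leaving out each library gave -0.043 to 0.010 for Atp5f1, -0.29 to 0.020 for Cox7a2, -0.13 to 1.49e-04 for Cox7b, -0.19 to 0.14 for Cox7c, -0.069 to 0.071 for Cyc1 and -0.30 to 0.040 for Ndufa4. Of 805 comparisons of 63 genes with an alternative, 673 kept direction and call, 109 lost the call, 7 gained it and 16 changed sign. The cause of these changes was not tested. With 2 libraries per population, and depth known only roughly, differences under about the spread between libraries could not be resolved. Where a library was left out, the lone library of its population was assumed to vary like the other population. Counting Ndufa4 with complex I left the calls of complexes I and IV at 15 lower, and 3 higher and 5 lower, and without Atp5s, Atp5sl and Cox7a2l 5 members were higher and 33 lower.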
